A study of Saccharomyces cerevisiae with 5 samples.

Results

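Sulfate assimilation was read through 10 genes of Saccharomyces cerevisiae: the sulfate permease genes SUL1 and SUL2, the genes of the steps from sulfate to sulfide and homocysteine (MET3, MET14, MET16, MET5, MET10 and MET17), and the siroheme genes MET1 and MET8. They were chosen by function, with earlier results of these data known, and found by gene symbol among the 5379 genes with a named probe. A probe carried the symbol of 9 of the 10, and 8 had a value on all 3 arrays and so entered the test over 4824 genes. MET8 was read on 2 arrays, and SUL2 was not analysed here because no probe carried its symbol in the annotation used.

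The laboratory strain S288C was grown in YPD, a rich medium of 2% polypeptone, 1% yeast extract and 2% glucose, at 25 °C with shaking. Copper(II) sulfate pentahydrate was added during exponential growth to a final 10 mM for 2 h, and the untreated cells grew for the same 2 h without it. Both cultures share strain, medium and temperature, and differ by the salt, so that copper and the added sulfate cannot be told apart. PolyA RNA of treated cells was labelled with Cy5 and that of untreated cells with Cy3 on each of the 3 arrays, and the series text describes the hybridizations as biologically independent but leaves unsaid whether every array had an untreated culture of its own. The p-values therefore measure the spread between arrays, and a dye bias of a single gene cannot be told apart from the treatment.

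In yeast, sulfate enters through Sul1 and Sul2, is activated to adenylyl sulfate (APS) and phosphoadenylyl sulfate (PAPS), and is reduced to sulfite and then to sulfide, which Met17 joins to O-acetylhomoserine to give homocysteine. Sulfite reductase carries siroheme, an iron tetrapyrrole made by Met1 and Met8 from a heme precursor. The genes are known targets of the activator Met4, which is brought to DNA by Cbf1, Met31 and Met32 and restrained by the ubiquitin ligase subunit Met30, and they are held low when methionine and cysteine are plentiful, as in a rich medium.

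Values are log2 ratios per array, where 1 is a 2-fold difference. The deposited table does not state their direction. Treated over untreated is taken as likely, because the labels list the treated RNA as channel 1; if it were the reverse, every rise below would be a fall. As a reading of that sign, CUP1-1, CUP1-2 and CRS5, the copper metallothionein genes known to be induced by copper, had means of 4.33 ± 1.53, 4.25 ± 2.12 and 3.00 ± 1.05 (SD, n = 3), and CTR1 and FRE1, the copper permease and surface reductase genes known to be shut off by copper, had -3.13 ± 0.95 and -3.73 ± 0.36. Between 76.2% and 86.1% of the 6912 spots held a value on the single scan of replicate 1 and the scans of replicates 2 and 3 at high laser power. The scan of replicate 2 at low laser power, averaged in where it had a value, held values at 41.3% of spots. The number of arrays limits the precision. A ratio of whole cultures does not tell a change in every cell from a change in some of them.

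The comparison asked how far each step of the pathway stood above or below its level in untreated cells. Genes of every enzymatic step from sulfate to homocysteine were higher in treated cells, whereas the permease gene SUL1 was not past the threshold. A difference between SUL1 and the enzyme genes was not tested. MET17 stood far above the rest with a mean rise of 15.1-fold. The genes of sulfate activation, PAPS reduction and sulfite reduction rose by 1.80-fold to 2.78-fold, and the siroheme gene MET1 rose by 1.54-fold. Of the 8 tested genes, 7 rose and 0 fell at an adjusted p of 0.05, while 11.5% of all tested genes rose and 12% fell (limma, two-sided, Benjamini-Hochberg over 4824 genes). A mean rise of at least 2-fold was held by 3 of the 8, MET17, MET3 and MET10, against 2.67% of all tested genes. The median over the 8 was 0.90, and over all tested genes it was -0.04. All 26 readings of the 9 measured genes were above 0. All 8 tested genes were thus above 0 on all 3 arrays, as were 27.3% of all tested genes.

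**Figure D1:**
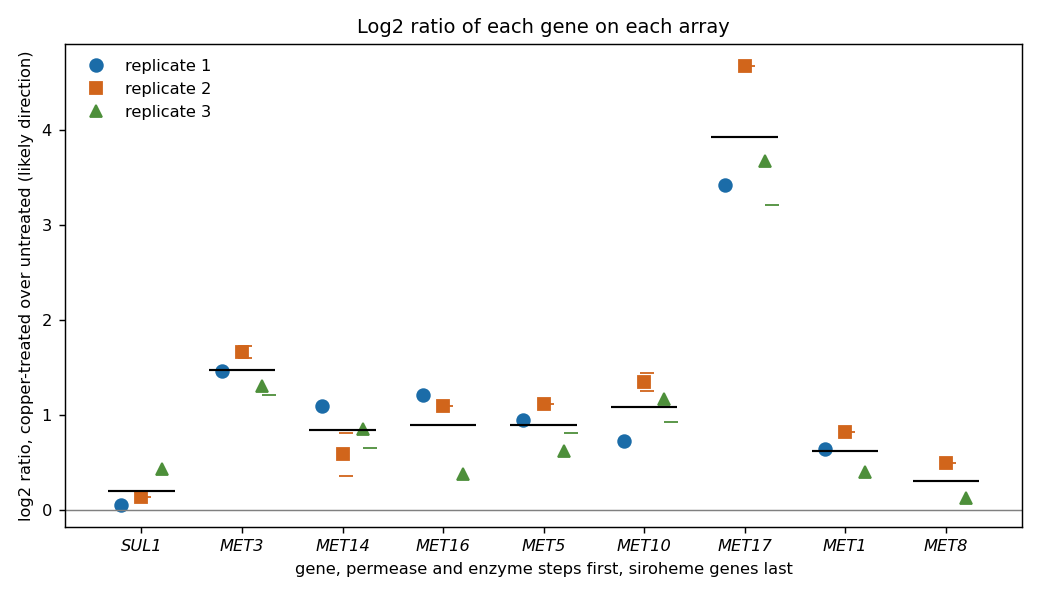
The vertical axis is the log2 ratio of copper-treated over untreated cells (likely direction) and the horizontal axis the genes, with a circle, square and triangle for replicates 1, 2 and 3, a black line for their mean, and short dashes for the 2 scans of replicate 2 and the low-power scan of replicate 3. The points of MET17 lie between 3.42 and 4.67, with a low-power dash at 3.20, those of the other genes lie between 0.06 and 1.66, with the highest dash at 1.72 for MET3, and no point lies below 0.

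SUL1 (YBR294W), a high-affinity sulfate permease gene, read 0.06, 0.14 and 0.43 on replicates 1, 2 and 3. All 3 readings were small and positive, with the highest on replicate 3, where 4 of the other 7 tested genes were lowest. The mean of 0.21 ± 0.20 (SD, n = 3) was not past the threshold (adjusted p = 0.338), and its 95% interval of -0.14 to 0.56 leaves room for a rise of up to 1.47-fold. SUL1 ranked 1372nd of the 4824 tested genes from the top.

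MET3 (YJR010W) encodes ATP sulfurylase, which activates sulfate to APS and so commits it to the pathway. It read 1.46, 1.66 and 1.30 on replicates 1, 2 and 3, within 0.36 of each other, and was second of the 8 genes on each array. The mean was 1.48 ± 0.18, a rise of 2.78-fold with a 95% interval of 2.19-fold to 3.53-fold (adjusted p = 0.00152). The array of replicate 2 gave 1.60 at high and 1.72 at low laser power. MET3 ranked 34th of all tested genes.

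MET14 (YKL001C), the APS kinase gene, read 1.10, 0.59 and 0.86, lowest on replicate 2. That low value joins 2 scans of the array which differed, 0.36 at high and 0.81 at low power, a gap larger than that of 95.1% of the 2671 genes read on both. The mean was 0.85 ± 0.26, a rise of 1.80-fold (adjusted p = 0.0110). Without replicate 1 the mean was 0.72 and the call was lost (adjusted p = 0.0541, in a range over the alternatives from 0.00239 to 1, the last against a 2-fold minimum).

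MET16 (YPR167C), the gene of PAPS reductase, which makes sulfite with electrons from thioredoxin, read 1.22, 1.10 and 0.39. Replicates 1 and 2 lay close together and replicate 3 well below them. The mean was 0.90 ± 0.45, or 1.86-fold (adjusted p = 0.0171), and the spread between arrays was wider than that of 84.7% of tested genes. The mean was 1.16 without replicate 3, and without replicate 2 it was 0.80 and no longer past the threshold (adjusted p = 0.0568, in a range from 0.00234 to 1).

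MET5 (YJR137C) and MET10 (YFR030W) encode the subunits of sulfite reductase, which makes sulfide with NADPH, MET5 the subunit that holds siroheme and MET10 the flavoprotein. MET5 read 0.95, 1.12 and 0.62, with a mean of 0.90 ± 0.25 or 1.86-fold (adjusted p = 0.00912). MET10 read 0.73, 1.35 and 1.17, with a mean of 1.09 ± 0.32 or 2.12-fold (adjusted p = 0.00516). MET10 was the higher on replicates 2 and 3 and MET5 on replicate 1. Within arrays MET5 minus MET10 was -0.19 ± 0.39, a difference smaller than its spread (exact sign-flip permutation test, two-sided, p = 0.5, adjusted p = 0.625 over 5 pairs).

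MET17 (YLR303W, also MET15 and MET25), the O-acetylhomoserine sulfhydrylase gene whose product takes sulfide into homocysteine, read 3.42, 4.67 and 3.68. Replicate 2 was the highest, and the lowest of its readings was above the highest reading of any other gene of the pathway measured here. The mean was 3.92 ± 0.66, with a 95% interval of 10.4-fold to 22.04-fold (adjusted p = 0.000175). The spread between arrays was wider than that of 96.6% of tested genes. Of all tested genes, 3 were higher than MET17 on replicate 1, 2 on replicate 2 and 0 on replicate 3. By mean it ranked 3 of 4824, and the genes nearest to it that are outside the pathway were CUP1-2, CUP1-1 and CRS5 at ranks 2, 1 and 4. The low-power scan of replicate 3 read 3.20 where the high-power scan read 3.68, a gap wider than that of 94.8% of the 4072 genes on both scans. MET17 is also the single gene of the 8 that passed a test against a 2-fold minimum (adjusted p = 0.00179).

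Siroheme synthesis was read through MET1 (YKR069W), the methyltransferase gene that turns the shared tetrapyrrole precursor away from heme, and MET8 (YBR213W), whose product oxidises the ring and inserts iron. MET1 read 0.64, 0.83 and 0.40, all positive and lowest on replicate 3. The mean of 0.62 ± 0.21 was a rise of 1.54-fold (adjusted p = 0.0250), the smallest among the 7 genes that rose. It was 0.61 without replicate 1 and 0.52 without replicate 2, neither past the threshold (adjusted p = 0.114 and 0.0915, in a range from 0.0108 to 1). MET8 read 0.50 on replicate 2 and 0.13 on replicate 3, and replicate 1 lacked it. In a fit that admitted genes read on 2 arrays its mean of 0.31 was not past the threshold (adjusted p = 0.289 over 5127 genes). MET1 was above MET8 by 0.33 and 0.27 on the arrays that held both.

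Ordered by mean, the genes ran MET17, MET3, MET10, MET16, MET5, MET14, MET1 and SUL1. Only the first step of that order separated the ranges, with MET17 above MET3 by 1.95, 3.01 and 2.37 on replicates 1, 2 and 3 (2.44 ± 0.53). MET3 was above MET10 on all 3 arrays, by 0.73, 0.31 and 0.13, and their ranges overlapped. MET10, MET16, MET5 and MET14 followed with differences between neighbours of 0.19 ± 0.64, 0.003 ± 0.25 and 0.05 ± 0.42, each smaller than its spread, so their order was not resolved. MET14 was above MET1 by a mean of 0.23 ± 0.40, and MET1 above SUL1 by 0.41 ± 0.39, each higher on 2 of 3 arrays. Of the within-array differences between steps, MET3 minus MET14 was 0.63 ± 0.39 and MET17 minus MET10 was 2.83 ± 0.43, both positive on 3 of 3 arrays (exact sign-flip permutation p = 0.25 each, the smallest that 3 arrays allow, adjusted p = 0.625). MET14 minus MET16 was -0.05 ± 0.49 (exact permutation p = 0.75). On replicate 2 it set a mean of both scans for MET14 against the high-power scan for MET16. With the high-power scan alone for replicate 2 the mean difference was -0.13. Other differences of MET3, MET10 or MET14 from the remaining genes mixed scans on replicate 2 in the same way. With the high-power scan alone for replicate 2, MET17 minus MET10 had a mean of 2.87 and MET5 minus MET10 of -0.16.

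**Figure D2:**
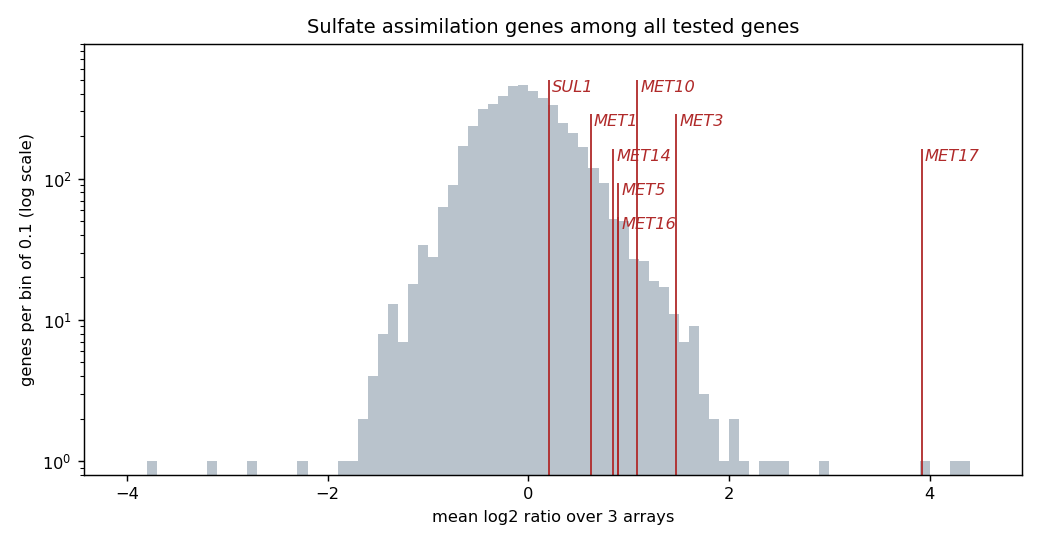
The histogram counts the 4824 tested genes by mean log2 ratio over 3 arrays in bins of 0.1, with a log scale on the vertical axis, and red lines mark the 8 tested genes of sulfate assimilation. SUL1 at 0.21 lies within the bulk, MET1 to MET3 at 0.62 to 1.48 lie on its upper shoulder, and MET17 at 3.92 stands with 2 other genes beyond 3.

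The arrays differed in how far they spread. The median over the 8 genes was 1.03, 1.11 and 0.74 on replicates 1, 2 and 3, and the SD over all tested genes was 0.58, 0.66 and 0.48. The genes above 1 numbered 4, 5 and 3. CUP1-1, lowest on replicate 3 as well, read 5.41, 5.002 and 2.57. Single genes did not all follow the order of the medians: MET3, MET5 and MET1 did. MET16 and MET14 were highest on replicate 1, with MET14 lowest on replicate 2. MET17 and MET10 were lowest on replicate 1, and SUL1 was highest on replicate 3. With the arrays scaled to 1 spread, MET16 and MET1 had means of 0.88 and 0.61 and were past the threshold (adjusted p = 0.0122 and 0.0185).

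Ratios on these arrays differed with gene length, and the 200 tested genes nearest in length to CUP1-1 (186 bases) had a median of 0.35, so the pathway genes were also set beside others of their length. The 200 tested genes nearest in length to MET5 (4329 bases) had a median of -0.10 and 3.5% of them rose, and those nearest to MET14 (609 bases) had a median of -0.0047 and 14% rose. For MET17 (1335 bases) the median was -0.18 and 4.5% rose. After a correction of the ratios for length the means were 3.98 for MET17, 1.53 for MET3, 1.18 for MET10, 1.00 for MET5, 0.94 for MET16, 0.82 for MET14, 0.68 for MET1 and 0.31 for SUL1, and the same 7 genes were past the threshold.

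Genes that feed or adjoin the pathway were counted in the same way, and each count stands against the 11.5% of all tested genes that rose and the 12% that fell. With lists this short, a count of 0 or 1 is close to those shares and says nothing particular about the list. Of the 4 genes of O-acetylhomoserine supply (HOM3, HOM2, HOM6 and MET2), which make the carbon skeleton that Met17 uses, 0 rose and 0 fell, with a median of 0.20. MET2, the homoserine acetyltransferase gene, read 0.54, 0.77 and 0.04 (0.45 ± 0.37, adjusted p = 0.0958), and it was past the threshold in 2 of 15 alternatives. Of 8 genes of tetrapyrrole supply and the heme branch, which share the precursor used by Met1, 0 rose and 0 fell, around a median of -0.08 and within -0.39 to 0.43. HEM3, the enzyme gene that makes the linear tetrapyrrole, read 0.45, 0.39 and 0.46 (adjusted p = 0.0575). It was past the threshold in 6 of 15 alternatives, among them the correction for length, where its mean was 0.48 (adjusted p = 0.0418, in a range from 0.0297 to 1) and 1 gene of the list rose. Of the 4 genes that serve PAPS reduction, 1 rose and 0 fell, with a median of 0.27. TRX1, a cytosolic thioredoxin gene, rose (0.53 ± 0.27, adjusted p = 0.0471), a call that was lost in 6 of 15 alternatives. With the correction for length its mean was 0.16 (adjusted p = 0.444, in a range from 0.0214 to 1). Its paralogue TRX2 read 1.06, 1.39 and -0.31, with replicate 3 on the other side of 0 (adjusted p = 0.108). TRR1, the thioredoxin reductase gene, had -0.11 ± 0.39 (adjusted p = 0.668), and MET22, whose product clears the nucleotide left by PAPS reduction, had 0.01 ± 0.14 (adjusted p = 0.966).

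NADPH, which sulfite reductase consumes, is supplied by the pentose phosphate pathway. Of 7 tested genes of that list, 4 rose and 0 fell, with a median of 0.60, where 11.5% of all tested genes rose and 12% fell. GND2, the minor phosphogluconate dehydrogenase gene, read 1.83, 2.36 and 0.65 (1.61 ± 0.87, adjusted p = 0.00949), a mean above that of MET3. RPE1, the epimerase gene (0.82 ± 0.19), TAL1, transaldolase (0.67 ± 0.02), and ZWF1, glucose-6-phosphate dehydrogenase (0.60 ± 0.10), rose as well. Without replicate 1 the adjusted p was 0.0761 for TAL1 and 0.172 for ZWF1 (ranges from 0.00744 and from 0.00883, both to 1), while ZWF1 had 0.0597 without replicate 2. GND1, the major isoenzyme gene, read 0.58 on replicate 1 and 0.22 on replicate 2 but lacked a reading at high power on replicate 3, where the low-power scan read 1.19. Of the tested genes of the list not past the threshold, RKI1 read -0.58, -0.81 and -0.007 (-0.47 ± 0.41, adjusted p = 0.0979). TKL1 had 0.32 ± 0.58 and SOL3 0.16 ± 0.15. With array weights, and also without replicate 3, 1 gene of the list fell.

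Beyond homocysteine, 5 of 11 tested genes rose and 1 fell, with a median of 0.45, where 11.5% of all tested genes rose and 12% fell. MET6, methionine synthase, read 2.02, 2.32 and 1.78, above every gene of sulfate reduction apart from MET17 on each array. MHT1, which methylates homocysteine from S-methylmethionine (1.58 ± 0.85), SAM2, an S-adenosylmethionine synthetase gene (1.34 ± 0.38), and CYS3, cystathionine gamma-lyase (1.09 ± 0.29), also rose. SAM4, the further homocysteine methyltransferase gene, fell by 0.65 ± 0.29 (adjusted p = 0.0266), and was named after its value was seen. Its call was lost in 3 of 15 alternatives. SAM1, the other S-adenosylmethionine synthetase gene, had 0.45 ± 0.19 (adjusted p = 0.0620) and was past the threshold in 4 of 15 alternatives. Of 7 genes for the uptake and use of organic sulfur, the methionine permease genes MUP1 (2.55 ± 0.09) and MUP3 (1.39 ± 0.39) and the S-methylmethionine permease gene MMP1 (1.63 ± 0.14) rose and 0 fell, with a median of 0.46, beside the same shares of 11.5% and 12%. The 3 that rose read above SUL1 on every array. Of the other transporter genes of that list, SAM3, the S-adenosylmethionine permease gene, read 0.46, 0.74 and 0.19, below SUL1 on replicate 3, and YCT1, a cysteine transporter gene, read -0.22, -0.04 and -0.66, below SUL1 on every array.

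Of 3 further genes tied to inorganic sulfur transport, 0 rose and 1 fell, where 11.5% of all tested genes rose and 12% fell. SSU1, the plasma membrane sulfite pump gene, read -0.74, -0.85 and -0.47 and fell by 0.69 ± 0.20 (adjusted p = 0.0184), opposite in sign to the genes that make and use sulfite. It was no longer past the threshold when replicate 1 (adjusted p = 0.0863) or replicate 2 (adjusted p = 0.0640) was left out, in a range from 0.00720 to 1. FZF1, the activator gene of SSU1, had 0.20 ± 0.13 with a 95% interval of -0.13 to 0.54 (adjusted p = 0.327), and SOA1, a further transporter gene for inorganic and organic sulfur, had 0.08 ± 0.16 (adjusted p = 0.712).

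Of the 4 tested regulator genes, 1 rose and 0 fell, a count close to the 11.5% and 12% of all tested genes. MET30 read 0.68, 0.39 and 0.44 (0.51 ± 0.16, adjusted p = 0.0423), and its call was lost in 8 of 15 alternatives, with an adjusted p from 0.0143 to 1. MET4 had 0.41 ± 0.16 (adjusted p = 0.0772) and CBF1 0.38 ± 0.16 (adjusted p = 0.0959). MET31, by contrast, read -0.12, -0.08 and -0.26 (-0.16 ± 0.09, adjusted p = 0.450), below 0 on every array. MET28, a cofactor gene of Met4, read 1.34 and 0.30 and MET32 read 0.85 and 0.31 on replicates 1 and 3, but replicate 2 lacked both, so neither was tested.

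**Figure D3:**
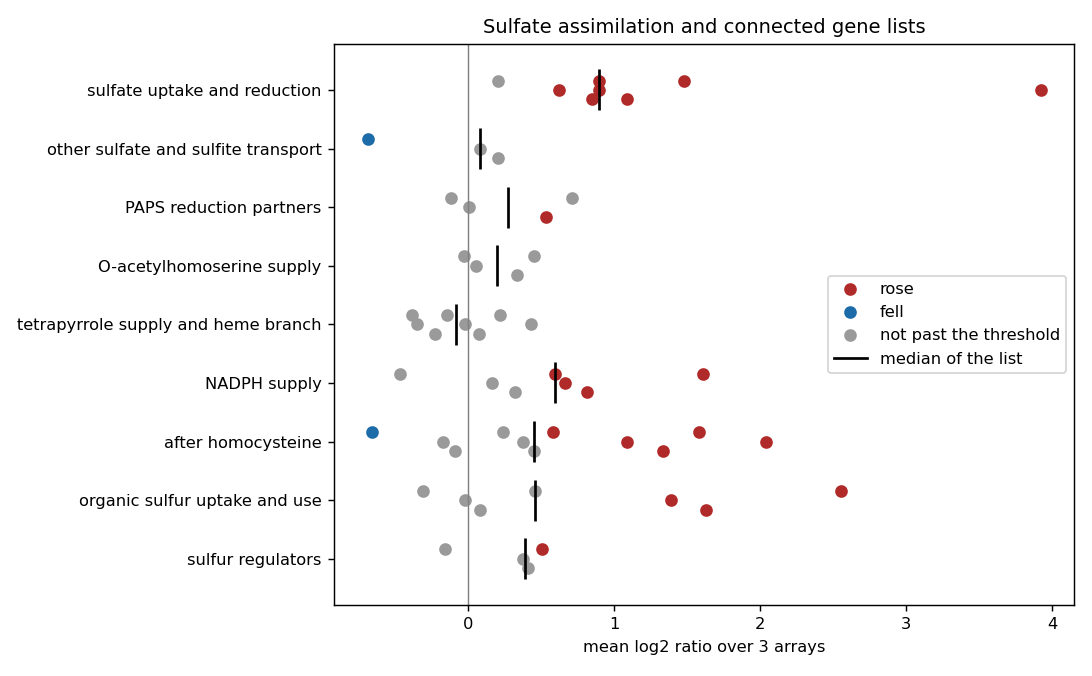
Each point is a tested gene at its mean log2 ratio over 3 arrays (horizontal axis), in rows by list (vertical axis), coloured red where it rose, blue where it fell and grey where it was not past the threshold, with a black line at the median of the list. The sulfate uptake and reduction row has a median of 0.90, and the heme branch row, with a median of -0.08, holds grey points alone, of which the rightmost, HEM3, was past the threshold in 6 of 15 alternatives.

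The genes beside the pathway genes on the chromosome were read as a local reference. The 10 genes are scattered, and of 17 tested genes that adjoin them 3 rose and 0 fell, where 11.5% of all tested genes rose and 12% fell. With so few genes these counts are close to those shares and say nothing particular about the neighbours. Their median was 0.02, with a range from -0.50 to 0.84. Both neighbours of MET10 rose: PTR3, a gene of the amino acid sensor complex on the same strand (0.84 ± 0.14, adjusted p = 0.00879), and SMC2, a condensin gene whose end faces that of MET10 (0.58 ± 0.33, adjusted p = 0.0422). SPC1, a signal peptidase gene whose end faces that of MET3, read 0.68, 1.31 and 0.44 (0.81 ± 0.45, adjusted p = 0.0221). None of these 3, named after their values were seen, overlaps its neighbour in the reference annotation. Whether the probes tell the strands apart is not stated in the labels. PCA1, a metal-transporting ATPase gene beside SUL1, had -0.08 ± 0.07, and beside MET17, ACO1 read 0.69 on replicate 1 and 0.41 on replicate 2, while YLR302C, which overlaps MET17, had no reading.

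**Figure D4:**
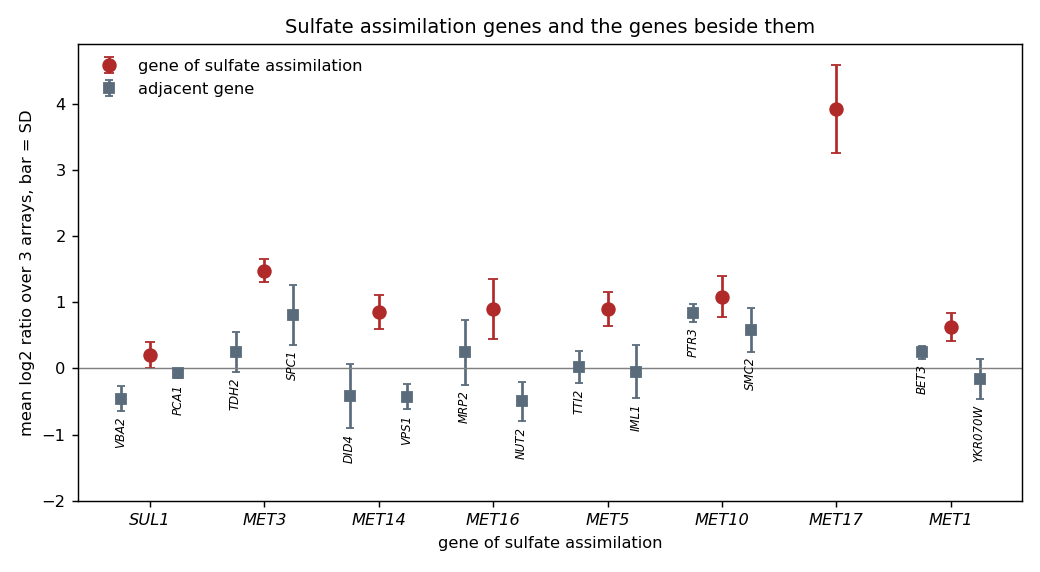
Red circles are the means over 3 arrays of the log2 ratio (vertical axis) of the 8 tested genes (horizontal axis), grey squares those of the tested genes beside them, and bars are SDs. SPC1 at 0.81 and PTR3 at 0.84 are the highest of the grey squares, and MET17 has no tested gene beside it.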

How the data were processed

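The authors deposited 1 table of log2 ratios for 5 scans of 3 arrays of 2 colours. Per the labels, spots of flag value 0 were LOWESS-normalized, and arrays were scanned at high and low laser power. The log base was read from the values: the lowest, -6.64, is the log2 of 0.01. The labels do not name the scanner, the image software or how background was treated. Replicate 1 was its single scan, replicate 2 the mean of both scans or whichever held a value, and replicate 3 its high-power scan, since the series text sets the other aside. The platform annotation gave 5446 of the 6912 probes a single symbol, 0 several and 1466 none. Names, lengths and gene order came from the yeast gene table of assembly R64. As no build is named for the array, coordinates are not printed.

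For the 4824 genes read on all 3 arrays, limma 3.58.1 (lmFit, eBayes; R 4.3.3) tested the mean log2 ratio against 0, two-sided, with Benjamini-Hochberg adjustment at 0.05. The code was tested on simulated data. Intervals of 95% are limma's, unadjusted. Pairs of genes were compared by exact sign-flip tests. Genes named are the 10 of the pathway, up to 4 called genes per connected list and further genes of those lists, neighbours included, chosen after their values were seen. The genes and lists were chosen with earlier results of these data known, so counts over a list are descriptions.

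Alternatives (15) joined scans in other ways, centred or scaled arrays, admitted genes on 2 arrays, used robust variances, array weights, a length correction (loess, span 0.4, degree 1), a 2-fold minimum or left out each replicate. A centring within 8 groups of probe identifiers was chosen after seeing the data.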

Additional observations from a re-analysis of the deposited data

How the results depend on the processing

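Every tested gene of the pathway kept its sign under all alternatives that gave it a value, and of 115 such values 10 fell short of the threshold where the main one passed. Testing against a 2-fold minimum left 11 genes (7 higher, 4 lower), and 1 of the pathway, MET17. The low-power scan alone for replicate 2 left 3 pathway genes with values, MET3, MET14 and MET10. All 3 were past the threshold and higher, where 442 of 2686 tested genes were higher and 349 lower. With a replicate left out, 494 to 1211 genes passed, 276 to 573 higher and 218 to 638 lower, and 5, 5 and 7 pathway genes passed without replicates 1, 2 and 3, the losses being MET1, MET14 and MET16 as given with their values. The fit without replicate 1 had infinite prior degrees of freedom, so all genes shared 1 variance. Only some of the connected genes were followed singly through the alternatives, so changes of sign in the others were not looked for. Of those followed, MET22, near 0 throughout, changed sign with the low-power scan alone for replicate 2 (-0.0203) and with arrays scaled to 1 spread (-0.0023). It also did so with array weights (-0.0252) and with replicates left out (-0.0720 to 0.0536). TRR1 changed sign with replicates left out (-0.333 to 0.0499). The cause was not tested. A planned search of promoter windows for binding words, and the difference between SUL1 and SUL2, were not run. Readings with no low-power value, as for MET17 on replicate 2, rest on 1 scan, and signal over background was not analysed here.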
